A study of Homo sapiens with 10 samples.

Results

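The genes described here carry the core of Hedgehog signal reception: the receptor PTCH1, the decoy receptor HHIP, the signal transducer SMO, the GLI inhibitor SUFU and the transcription factors GLI1, GLI2 and GLI3. They are 7 of 19301 named features in a table of messenger RNA levels. The set was chosen by gene name after PTCH1 had been seen lower with the guide TOP1, so the PTCH1 value against the control selected the set and is given here as a description, with no test. GLI2 is present only as a joint feature that lists the symbol in 2 spellings, and each of the other 6 genes has a row of its own. All 7 had a mean of at least 1 FPKM (fragments per kilobase of transcript, relative to the mapped fragments of the library) over the libraries and were therefore among the 11574 features tested. The table does not give read counts.

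RNA was taken from HEK293FT cells, a line derived from human embryonic kidney, that carry integrated Gaussia and Cypridina luciferase reporters. The 10 libraries form 5 groups of 2: cells given dCas9-VP64, a Cas9 that cannot cut DNA joined to a transcriptional activator, together with the guide labelled TOP1, P4P6, INT or sgRNA, and cells given dCas9-VP64 with no guide (CasVP). All 5 groups therefore carry the reporters and dCas9-VP64, and every guide is aimed at the Gaussia reporter. TOP1 is here the name of a guide, not of the topoisomerase gene. The transfection was transient, at 125000 cells per well with 59 ng of dCas9-VP64 plasmid and, where given, 11.6 ng of guide plasmid. Most of the plasmid DNA was carrier, at 679.4 ng in all 5 groups, and the Lipofectamine volume was 2.25 µL throughout. Cells had been plated 1 day before, and the RNA was harvested 3 days after the transfection. How the guides differ, and whether the libraries of a group were separate cultures, is not stated in the labels, so p-values measure the spread between these samples only. Libraries are named by group and by the 0 or 1 in the column name, which was not matched to the replicate numbers in the labels. In such bulk RNA, fewer cells that express a gene and less of its RNA per cell cannot be told apart.

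In Hedgehog signalling, PTCH1 holds SMO inactive until a ligand binds it. SMO then acts at the primary cilium to release GLI2 and GLI3 from SUFU and to stop their processing into repressors. PTCH1, GLI1 and HHIP are themselves transcribed in response to GLI factors in many tissues, so their RNA is widely read as a measure of pathway output.

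The promoter windows of PTCH1, HHIP and SUFU are shown because these were the members for which both TOP1 libraries were below the other 8, and because the PTCH1 window holds the GLI binding consensus GACCACCCA. The sequences are from RefSeq on GRCh38.p14 and run from 250 bases before to 50 bases after a transcription start, 5′ to 3′ on the strand of the gene. Capitals mark the consensus, which lies there as TGGGTGGTC, its form on the opposite strand.
PTCH1 chr9:95509217-95509516 (minus strand): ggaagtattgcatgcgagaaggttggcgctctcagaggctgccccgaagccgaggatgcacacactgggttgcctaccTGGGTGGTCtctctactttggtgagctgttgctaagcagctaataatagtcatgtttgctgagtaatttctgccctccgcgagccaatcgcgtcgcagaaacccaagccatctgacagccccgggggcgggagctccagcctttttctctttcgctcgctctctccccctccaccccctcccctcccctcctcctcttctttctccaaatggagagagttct
HHIP chr4:144645906-144646205 (plus strand): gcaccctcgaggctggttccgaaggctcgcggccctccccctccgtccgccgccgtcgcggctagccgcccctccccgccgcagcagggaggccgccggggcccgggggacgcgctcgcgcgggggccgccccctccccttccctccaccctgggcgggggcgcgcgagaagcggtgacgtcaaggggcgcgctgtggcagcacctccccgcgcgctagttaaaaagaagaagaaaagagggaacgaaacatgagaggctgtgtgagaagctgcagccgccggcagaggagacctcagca
SUFU chr10:102503722-102504021 (plus strand): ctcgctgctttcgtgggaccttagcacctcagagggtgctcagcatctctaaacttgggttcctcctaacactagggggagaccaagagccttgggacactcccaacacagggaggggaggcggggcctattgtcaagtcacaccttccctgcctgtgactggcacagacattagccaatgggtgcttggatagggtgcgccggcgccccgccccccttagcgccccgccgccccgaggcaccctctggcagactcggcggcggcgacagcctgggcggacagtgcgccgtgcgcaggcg
The first base of the match lies 172 bases before the PTCH1 start. Exact matches on either strand were present in 83 of 35116 RefSeq windows of this length, or 0.236%, belonging to 81 of 27305 genes. Windows were matched for 5 of the 7 members, 10 windows in all, of which 5 belong to PTCH1. The other 9 member windows had no exact match, which says only that these letters are not in them. A match describes the sequence and was not tested as a binding site.

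The members differed widely in level per length. SMO was the highest, with a mean of 19.1 FPKM over the 10 libraries (range 18.0 to 19.9). GLI3 averaged 5.92 FPKM, SUFU 5.65 and PTCH1 5.19, and their ranges over libraries overlapped (5.30 to 6.80, 4.28 to 7.35 and 3.95 to 6.51 FPKM). GLI2 followed at 3.32 FPKM, HHIP at 2.70 and GLI1 at 1.75, the lowest of the members, above only 5.74% of the tested features. The ranges of GLI2 (2.62 to 4.40 FPKM) and HHIP (2.17 to 3.24) overlapped, as did those of HHIP and GLI1 (1.39 to 2.28). The genes for the ligands were at or near 0 in every library: SHH reached 0.107 FPKM at most, IHH 0.192 and DHH 0.0505.

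**Figure D1:**
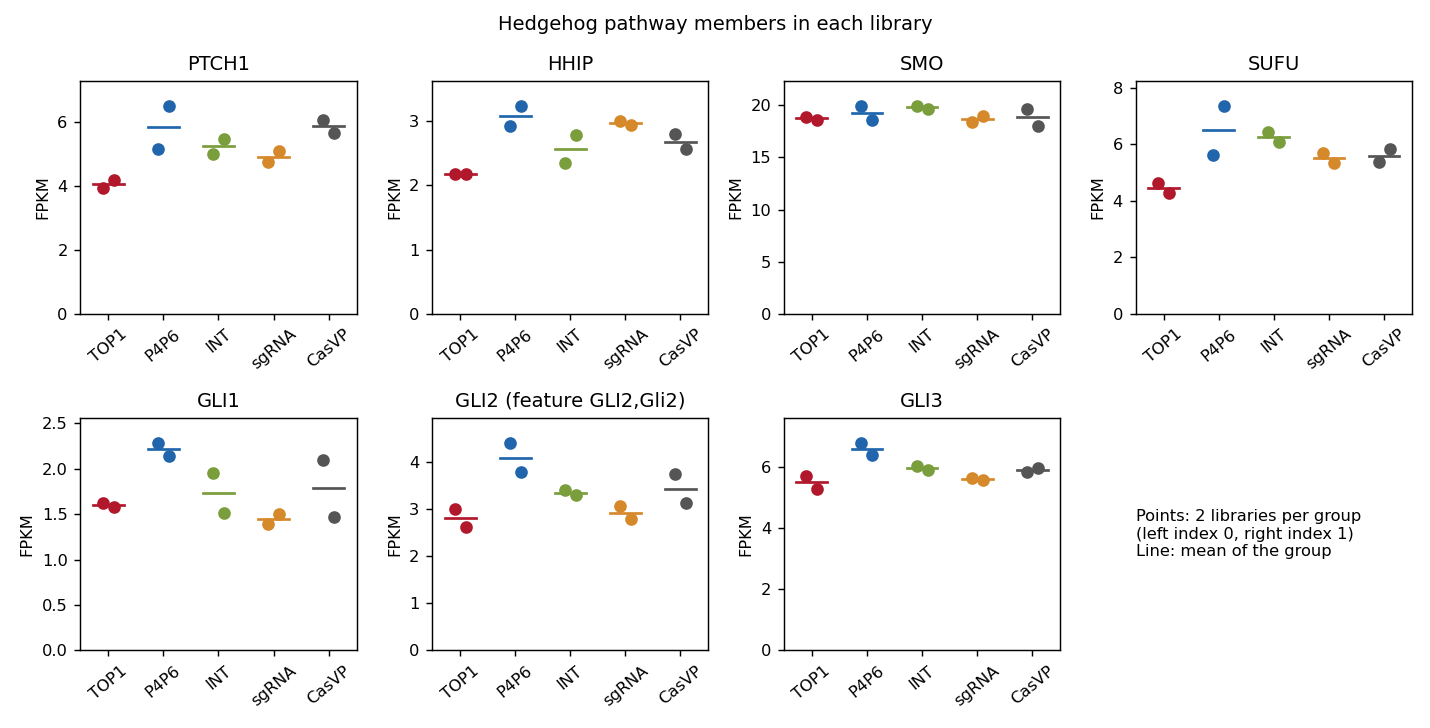
FPKM of each member in the 10 libraries (y axis, starting at 0), with groups on the x axis. Points are the 2 libraries of a group and the line is their mean. For PTCH1, HHIP and SUFU both TOP1 points lie below every other library, for GLI1, GLI2 and GLI3 both P4P6 points lie above every other library, and for SMO the groups overlap between 18.0 and 19.9 FPKM.

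PTCH1, the ligand receptor and brake on SMO, had 3.95 and 4.197 FPKM with TOP1, 5.16 and 6.51 with P4P6, 5.01 and 5.49 with INT, 4.74 and 5.08 with sgRNA, and 6.06 and 5.68 with CasVP. Both TOP1 libraries were below the other 8, of which the lowest was sgRNA replicate 0. The group means were 4.07 ± 0.176 FPKM with TOP1 and 5.87 ± 0.273 FPKM with CasVP (SD, n = 2 each), a ratio of 0.694 and a difference of -0.44 on the scale of log2(FPKM + 1). This is the value on which the set was chosen. The other guides lay between those groups or overlapped CasVP: the PTCH1 mean relative to CasVP was 0.994 with P4P6, 0.894 with INT and 0.837 with sgRNA.

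Where neither TOP1 nor CasVP enters, PTCH1 can be tested. Differences here and below are of group means of log2(FPKM + 1), which understates the change of low genes, from limma with Benjamini-Hochberg adjustment over all tested features and a threshold of 0.05 on the adjusted p. PTCH1 differed by 0.20 between P4P6 and sgRNA (95% interval -0.01 to 0.42, adjusted p 0.184), by 0.12 between P4P6 and INT (-0.09 to 0.34, 0.623) and by 0.08 between INT and sgRNA (-0.13 to 0.29, 0.816). None passed. The 2 P4P6 libraries were themselves far apart for this gene: without P4P6 replicate 0 the difference from sgRNA was 0.35 and passed, and without P4P6 replicate 1 the difference from INT was -0.019.

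HHIP, a membrane protein that binds Hedgehog ligands and limits signalling, had 2.17 FPKM in both TOP1 libraries, 2.93 and 3.24 with P4P6, 2.35 and 2.78 with INT, 3.01 and 2.95 with sgRNA, and 2.80 and 2.57 with CasVP. Both TOP1 libraries were again below the other 8, the nearest being INT replicate 0. SUFU, which holds GLI proteins in the cytoplasm, had 4.62 and 4.28 FPKM with TOP1, 5.62 and 7.35 with P4P6, 6.42 and 6.08 with INT, 5.68 and 5.32 with sgRNA, and 5.36 and 5.81 with CasVP. Its TOP1 libraries also lay below the other 8, and its highest value came from the same library, P4P6 replicate 1, that was highest for PTCH1. So 2 of the 6 members other than PTCH1 were lowest in both TOP1 libraries. Among all tested features 4.86% had that pattern, and among the 5606 whose longest annotated transcript is at least as long as that of the shortest member (3613 bases) 6.23% had it. COL1A1, a collagen gene and the highest of 9 markers of other cell types, also had both TOP1 libraries below the other 8: 0.981 and 1.20 FPKM with TOP1, 1.59 and 1.94 with P4P6, 1.45 and 1.56 with INT, 1.22 and 1.60 with sgRNA, and 1.46 and 1.33 with CasVP. The 9 markers summed to 3.23 and 4.10 FPKM with TOP1, 4.05 and 4.72 with P4P6, 3.77 and 3.78 with INT, 3.76 and 4.03 with sgRNA, and 4.15 and 3.88 with CasVP, so that TOP1 overlapped the other groups. Without COL1A1 the sums were 2.25 and 2.89 FPKM with TOP1 and from 2.22 (INT replicate 1) to 2.79 (P4P6 replicate 1) in the other groups. COL3A1 (0.825 and 1.19 FPKM with TOP1) and CD68 (0.990 and 1.16) were each highest in TOP1 replicate 1. The part of these markers in the values of the members was not tested.

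SMO, the transducer that PTCH1 restrains, had 18.9 and 18.6 FPKM with TOP1, 19.9 and 18.6 with P4P6, 19.9 and 19.7 with INT, 18.4 and 19.0 with sgRNA, and 19.7 and 18.0 with CasVP. The groups overlapped, apart from INT lying just above TOP1, sgRNA and CasVP, and SMO had no difference past the threshold in any comparison.

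GLI1, which is both an activator and the most direct readout of the pathway, had 1.62 and 1.57 FPKM with TOP1, 2.28 and 2.14 with P4P6, 1.95 and 1.51 with INT, 1.39 and 1.495 with sgRNA, and 2.10 and 1.47 with CasVP. TOP1 lay inside the spread of the 2 CasVP libraries and above both sgRNA libraries. GLI2, the main activator, had 2.998 and 2.62 FPKM with TOP1, 4.40 and 3.77 with P4P6, 3.40 and 3.28 with INT, 3.06 and 2.78 with sgRNA, and 3.73 and 3.13 with CasVP. TOP1 was below CasVP without overlap but shared its range with sgRNA. GLI3, the main repressor in its processed form, had 5.71 and 5.30 FPKM with TOP1, 6.80 and 6.41 with P4P6, 6.05 and 5.90 with INT, 5.66 and 5.59 with sgRNA, and 5.85 and 5.96 with CasVP. In all 3 GLI genes both P4P6 libraries were above the other 8, which makes 3 of the 7 members. That pattern held for 9.99% of tested features and for 12.8% of those at least as long as the shortest member.

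**Figure D2:**
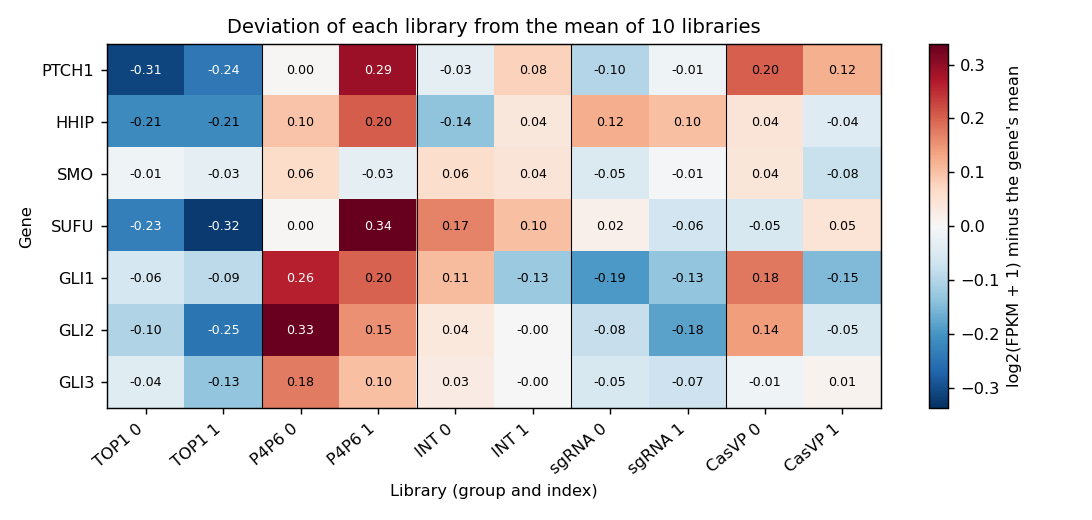
Deviation of each library (x axis, group and index) from the gene's own mean over 10 libraries, in log2(FPKM + 1), for the 7 members (y axis). Blue is below and red above the mean, and the number in each cell is the deviation. All 7 members have negative values in both TOP1 columns (-0.31 and -0.24 for PTCH1, -0.014 and -0.031 for SMO). All members except SMO have positive values in both P4P6 columns. Those of PTCH1 (0.0045) and SUFU (0.0028) in P4P6 replicate 0 are close to their means.

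The comparison of TOP1 with CasVP asks whether the rest of the pathway went with PTCH1. The estimates of all 7 members were below 0, but limma called none of the 6 that can be tested, and 2 had an unadjusted p under 0.05. SUFU differed by -0.27 (SE 0.10, unadjusted p 0.0233, adjusted p 0.515), HHIP by -0.22 (SE 0.09, 0.0297, 0.533) and GLI2 by -0.22 (SE 0.10, 0.0501, 0.537). GLI1, whose RNA would be the usual readout of GLI activity, differed by only -0.09 (95% interval -0.35 to 0.17, adjusted p 0.832). GLI3 also differed by -0.09 (-0.23 to 0.06, adjusted p 0.681) and SMO by -0.01 (-0.13 to 0.12, adjusted p 0.981). Without CasVP replicate 0 the GLI1 estimate was 0.075 and that of SMO 0.054, and without TOP1 replicate 1 that of SMO was 0.0036, so the direction of these genes rests on single libraries. The median over the 6 members without PTCH1 was -0.15, beside 0.003 over all tested features, of which 49.1% were below 0. In the same comparison limma called 0.00864% of all tested features, while 9.22% had an unadjusted p under 0.05. PTCH1, HHIP, SUFU, GLI2 and GLI3 had both TOP1 libraries below both CasVP libraries, 4 of them besides PTCH1, against 23.5% of all tested features.

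**Figure D3:**
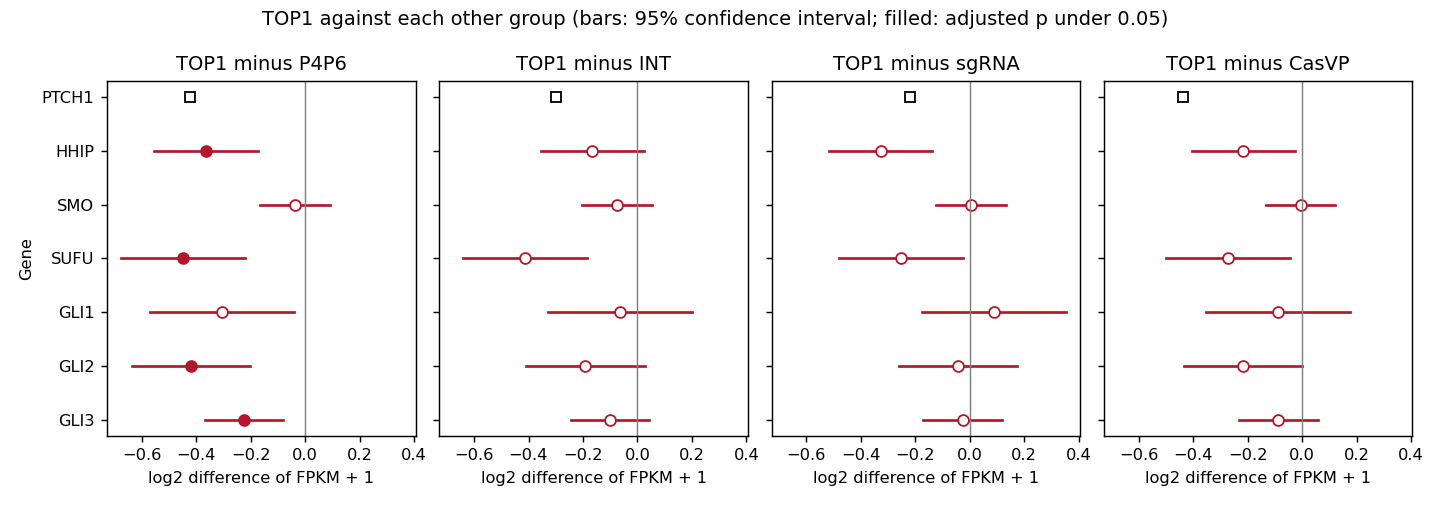
Difference of TOP1 from each other group for the 7 members (y axis), in log2(FPKM + 1) (x axis). Circles are estimates with 95% confidence intervals from limma, filled where the adjusted p was under 0.05, and the square is PTCH1, shown without interval because its value selected the set. Filled circles appear in the P4P6 panel alone, for HHIP, SUFU, GLI2 and GLI3.

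TOP1 against P4P6 was the comparison with the most calls among the members. HHIP, SUFU, GLI2 and GLI3 were lower with TOP1, 4 of the 6 members that can be tested, where limma called 8.61% of all tested features lower and 11.4% higher. SUFU averaged 4.45 ± 0.242 FPKM with TOP1 and 6.48 ± 1.22 FPKM with P4P6 (SD, n = 2 each), a log2 difference of -0.45 (SE 0.10, limma adjusted p 0.0175). GLI2 averaged 2.81 FPKM with TOP1 and 4.09 FPKM with P4P6, a difference of -0.42 (SE 0.10, adjusted p 0.0185). HHIP averaged 2.17 FPKM with TOP1 and 3.08 FPKM with P4P6, a difference of -0.36 (SE 0.09, adjusted p 0.0186). GLI3 averaged 5.505 FPKM with TOP1 and 6.61 FPKM with P4P6, a difference of -0.23 (SE 0.06, adjusted p 0.0359). GLI1 missed the threshold at 1.60 FPKM with TOP1 and 2.21 FPKM with P4P6 (-0.31, SE 0.12, adjusted p 0.0932), and SMO differed by -0.04 (adjusted p 0.675). PTCH1 differed by -0.42, given with no test. The count of 4 was 0 without either TOP1 library, 2 without P4P6 replicate 0, 1 without P4P6 replicate 1, and 0 where only these 4 libraries were used. Of all features called in this comparison 1322 of 2318 were higher with TOP1, but after quantile normalization 415 of 1182 were, and that setting called 3 members, without GLI3.

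P4P6 was also set against the groups other than TOP1. Against sgRNA, GLI2 rose with P4P6 to 4.09 FPKM, against 2.92 FPKM with sgRNA, a log2 difference of 0.37 (SE 0.10, limma adjusted p 0.0390). It was the single call among 7 members, where limma called 4.33% of tested features higher and 7.17% lower. GLI1 averaged 2.21 FPKM with P4P6 and 1.44 FPKM with sgRNA, a ratio of 1.53 and a difference of 0.40 (SE 0.12, adjusted p 0.0574). GLI3 differed by 0.20 (SE 0.06, adjusted p 0.0713), SUFU by 0.19 (adjusted p 0.231) and HHIP and SMO by 0.04 each. The GLI2 call was lost when any of 8 libraries was left out, those of P4P6, sgRNA, INT and CasVP, and after quantile normalization. With the column index as a block GLI1, GLI2 and GLI3 all passed, and all calls numbered 2326, against 1331 without it. The labels give no pairing, but the differences of index 0 from index 1 correlated at 0.415 between P4P6 and sgRNA, the highest of 10 pairs of groups, so whether the index pairs these libraries is not settled. Of all features called, 501 of 1331 were higher with P4P6, and after quantile normalization 298 of 388 were.

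Against CasVP, limma called none of the 6 testable members in P4P6, with none at an unadjusted p under 0.05, beside 0.00864% of tested features called and 22.2% at that unadjusted p. The estimates were 0.22 for GLI1 (SE 0.12, adjusted p 0.311), 0.20 for GLI2 (SE 0.10, 0.255), 0.14 for GLI3 (SE 0.06, 0.239), 0.17 for SUFU, 0.15 for HHIP, 0.03 for SMO and -0.01 for PTCH1. For SUFU the estimate rested on P4P6 replicate 1: without replicate 0 it was 0.34 and past the threshold, and without replicate 1 it was 0.0068. TOP1 and P4P6 were measured against the same CasVP libraries, so the 2 sets of differences are not independent. Against INT, P4P6 gave no call among 7 members, with HHIP (0.20) and GLI2 (0.23) at an unadjusted p under 0.05, beside 0.00864% of all features called and 11.2% at that unadjusted p.

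Some properties of the libraries moved with the P4P6 group. Its libraries had the lowest summed FPKM, 553565 and 535756, and the TOP1 libraries had 612551 and 601679, while the upper quartile was between 17.3 and 17.7 FPKM in all 10. Between P4P6 and CasVP, features at least as long as the shortest member had a median difference of 0.01 and shorter ones a median of -0.04. Between TOP1 and P4P6 these medians were -0.02 and 0.05. The members' longest annotated transcripts run from 3613 bases (GLI1) to 10631 bases (PTCH1). Removing each library's trend with length left 3 members called between TOP1 and P4P6, without GLI3, and none between P4P6 and sgRNA. The differences of P4P6 from sgRNA were then 0.40 for GLI1, 0.34 for GLI2 and 0.16 for GLI3, against 0.40, 0.37 and 0.20 before it was removed.

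The remaining comparisons gave no call among the members. Against sgRNA, TOP1 had none of 6 called by limma and 2 at an unadjusted p under 0.05, HHIP at -0.33 (SE 0.09, unadjusted p 0.00322, adjusted p 1.00) and SUFU at -0.25 (SE 0.10, 0.0324, 1.00), beside 0.00864% of all features called and 1.68% at that unadjusted p. Between TOP1 and sgRNA, GLI1 went the other way at 0.09 (SE 0.12), with both TOP1 libraries above both sgRNA libraries. SMO differed by 0.0051 there, and the median of the 6 tested members was -0.03, beside 0.002 over all tested features. Against INT, TOP1 had none of 6 called and SUFU alone at an unadjusted p under 0.05 (-0.41, SE 0.10, unadjusted p 0.00239, adjusted p 0.275), beside 0% of all features called and 14.2% at that unadjusted p. INT against CasVP and sgRNA against CasVP gave 0 calls and 0 unadjusted p under 0.05 among 6 members each, with 0.0173% of all features called in either. At that unadjusted p were 8.86% of all features for INT and 6.02% for sgRNA. INT against sgRNA gave 0 of both among 7 members, with 0.00864% of all features called and 8.77% at that unadjusted p. All guides together against CasVP gave 0 of both among 6, with 0.0173% called and 7.43% at that unadjusted p.

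Other genes of the pathway were taken from lists of ligands and their release, receptors and co-receptors, relay between SMO and GLI, cilium genes needed for signalling, and genes known as targets of GLI factors. Of these, 62 genes other than the members were tested, and limma called none of them between TOP1 and CasVP. Among the ligand genes only HHAT, which attaches palmitate to the ligand, and DISP1, which releases it, were tested: HHAT averaged 5.00 ± 0.0838 FPKM with TOP1 and 4.70 ± 0.933 FPKM with CasVP, and DISP1 2.63 FPKM with TOP1 and 2.50 FPKM with CasVP. Of the co-receptors, LRP2 had 2.92 FPKM with TOP1 and 3.36 with CasVP (log2 difference -0.16, SE 0.11), GAS1 13.7 with TOP1 and 12.8 with CasVP (0.09, SE 0.07) and CDON 4.55 with TOP1 and 4.90 with CasVP (-0.09, SE 0.09). Receptors and co-receptors, HHIP included and PTCH1 left out, had 5 of 6 estimates below 0 (median -0.08).

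In the relay list 25 of 30 estimates between TOP1 and CasVP were below 0, with a median of -0.05, 0 called and 2 at an unadjusted p under 0.05. At that unadjusted p were 9.22% of all tested features. Of all tested features 49.1% were below 0 in this comparison, and of those at least as long as the shortest member 52.9%. After SUFU its largest differences were in the protein kinase A feature PRKACA,PRKACB, whose kinases mark GLI proteins for processing (26.3 ± 2.12 FPKM with TOP1, 29.5 ± 0.809 with CasVP, log2 difference -0.16), and in IQCE, which anchors the EVC complex at the cilium (4.24 FPKM with TOP1, 4.81 with CasVP, -0.15). PRKACB also had a row of its own, with 12.1 FPKM with TOP1 and 11.8 with CasVP (0.03). Cilium genes had 7 of 18 below 0 (median 0.02): OFD1 had 18.0 FPKM with TOP1 and 16.2 with CasVP (0.14), DYNC2LI1 39.2 with TOP1 and 35.5 with CasVP (0.14), KIF3A 10.6 with TOP1 and 11.4 with CasVP (-0.10), and TMEM107 9.22 with TOP1 and 8.54 with CasVP (0.10). Targets had 8 of 12 below 0 (median -0.02). After HHIP their largest differences were in FOXM1, a cell cycle transcription factor, with 32.9 ± 1.97 FPKM with TOP1 and 37.4 ± 0.445 with CasVP (-0.18, limma adjusted p 0.501), in CCND2, a cyclin, with 15.5 FPKM with TOP1 and 13.7 with CasVP (0.17), and in CCND1, another cyclin, with 2.36 FPKM with TOP1 and 2.03 with CasVP (0.14). The estimates of the targets lay on both sides of 0. Over all tested pathway genes without PTCH1, 43 of 66 estimates were below 0, 6 had an unadjusted p under 0.05 and none passed, beside the same shares of all features.

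**Figure D4:**
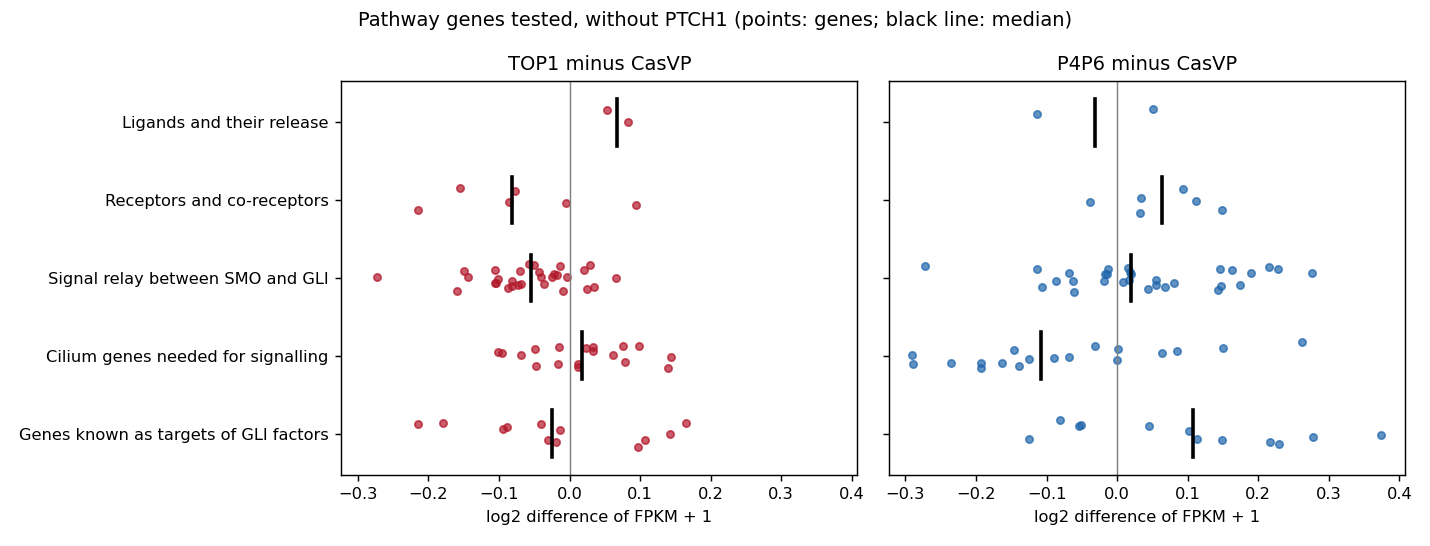
Differences of TOP1 (left) and of P4P6 (right) from CasVP in log2(FPKM + 1) (x axis) for the tested genes of each list (y axis), PTCH1 left out. Points are genes, and the black line is the median of the list. With TOP1, 25 of 30 relay genes lie left of 0, and with P4P6, 12 of 18 cilium genes lie left of 0 and 8 of 12 targets right of it. The 2 panels share the CasVP libraries.

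Between P4P6 and CasVP no pathway gene was called, and 17 of 66 had an unadjusted p under 0.05, beside 22.2% of all tested features. Relay genes had 19 of 30 estimates above 0 (median 0.02), targets 8 of 12 (median 0.11) and cilium genes 6 of 18 (median -0.11). Of all tested features 46.1% were above 0 in this comparison (median -0.01), and of those at least as long as the shortest member 52.8%.

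Between TOP1 and P4P6, 15 of the 62 pathway genes that are not members were called, 5 higher and 10 lower with TOP1, beside the 11.4% and 8.61% of all features given above. The 5 higher were a smaller share, and the 10 lower a larger one, than over all features. All 5 higher genes are on the cilium list: the intraflagellar transport genes IFT52 and IFT57, the dynein subunit DYNC2LI1 and the transition zone genes RPGRIP1L and B9D1. That list had 13 of 18 estimates above 0. Of all tested features 53.2% were above 0 in this comparison, and of those shorter than the shortest member 60.6%. DYNC2LI1 averaged 39.2 ± 2.16 FPKM with TOP1 and 32.2 ± 1.85 FPKM with P4P6 (log2 difference 0.28, limma adjusted p 0.0133), IFT57 31.9 FPKM with TOP1 and 27.3 with P4P6 (0.22, 0.0179), and IFT52 43.1 FPKM with TOP1 and 37.5 with P4P6 (0.20, 0.0447). B9D1 (0.37) and RPGRIP1L (0.37) had adjusted p of 0.0477 and 0.0480. INPP5E, a phosphatase of the cilium membrane, was lower, with 7.83 FPKM with TOP1 and 9.33 FPKM with P4P6 (-0.23, 0.0499).

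The other 9 genes that were lower with TOP1 than with P4P6 belong to the relay and to the targets. MGRN1, a ubiquitin ligase, averaged 11.1 ± 0.581 FPKM with TOP1 and 13.97 ± 0.450 FPKM with P4P6 (log2 difference -0.30, limma adjusted p 0.0127), and the feature PRKACA,PRKACB 26.3 FPKM with TOP1 and 33.1 with P4P6 (-0.32, 0.0142). The row of PRKACB alone differed by 0.02 (limma adjusted p 0.852). IQCE (-0.29), EVC (-0.25), DLG5 (-0.25) and CSNK1D (-0.23), a casein kinase, were also among the relay calls. Among targets, JAG2, a Notch ligand, averaged 7.16 ± 1.06 FPKM with TOP1 and 10.2 ± 0.347 FPKM with P4P6 (-0.47, 0.0157), and FOXM1 32.9 FPKM with TOP1 and 40.2 with P4P6 (-0.28, 0.0127). The count of 15 was 2 without TOP1 replicate 0, 4 without TOP1 replicate 1, 7 without P4P6 replicate 1 and 9 without any 1 of the sgRNA or CasVP libraries.

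Between P4P6 and sgRNA, 6 of the 62 were called, 3 in each direction, beside the 4.33% of all features called higher and 7.17% called lower. Those higher with P4P6 included PRKACA,PRKACB (0.30) and FOXM1 (0.24), and IFT52 (-0.24), IFT57 (-0.23) and DYNC2LI1 (-0.20) were lower, with limma adjusted p between 0.0272 and 0.0482. The row of PRKACB alone differed by -0.0023. FOXM1 averaged 40.2 ± 2.22 FPKM with P4P6 and 33.8 ± 0.892 FPKM with sgRNA. This comparison and the one before it share the P4P6 libraries. The count was 0 without either sgRNA library, either CasVP library or P4P6 replicate 1, 3 without either TOP1 library, and 10 without P4P6 replicate 0.

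By position alone, 4 of the 62 pathway genes had both TOP1 libraries below the other 8 (among them IQCE, ARRB2 and MGRN1). That pattern held for 4.86% of all tested features and for 6.23% of those at least as long as the shortest member. Both P4P6 libraries were above the other 8 in 11 of the 62, among them GPR161, PRKACA,PRKACB, FOXM1 and JAG2, beside 9.99% and 12.8%. All 4 with TOP1 lowest are on the relay list, which is the largest list and holds 30 of the 66 pathway genes tested without PTCH1.

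Likeness to PTCH1 was measured as the root mean square distance between centred log2(FPKM + 1) profiles over the 10 libraries. The 5 nearest features were NCRNA00095 at 0.0655, DNM1 at 0.0740, TMEM80 at 0.0742, INCA1 at 0.0742 and KIAA0226 at 0.0749, against a median distance of 0.195 over all features and a root mean square of 0.176 for the PTCH1 profile itself. DNM1, the dynamin of neurons, averaged 14.1 FPKM with TOP1 and 17.6 FPKM with CasVP, and NCRNA00095 2.84 FPKM with TOP1 and 3.97 with CasVP. None of these features is on the pathway lists. The nearest members were SUFU, ranked 333 of 11573 at a distance of 0.119, and HHIP, ranked 461 at 0.123. GLI3 ranked 1692, GLI2 2221, SMO 4101 and GLI1 4167, the last 2 no nearer to PTCH1 than a flat profile would be. These ranks are a description across libraries that share the fit and the choice of PTCH1.

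From the step between low values, the libraries were estimated to hold 19700000 (P4P6 replicate 0) to 28900000 fragments (TOP1 replicate 0), so that 1 FPKM on a transcript of 1 kb stands for about 19.7 to 28.9 fragments. The labels do not state that counting used strand. Each member overlaps at least 1 annotated gene on the opposite strand, with 3 for PTCH1 and 4 for HHIP. Of the overlapping genes only ARHGAP9, which lies opposite GLI1, is named among the features, so the level of the others is not known. The joint feature that holds ARHGAP9 had 0.132 to 0.688 FPKM. Of 11 markers listed for HEK293 cells, 9 had a mean of at least 1 FPKM, while PAX2 and LHX1 did not. Of the 9 markers of other cell types found in the table, COL1A1 and CD68 reached that level, and PTPRC, which marks blood cells, did not exceed 0.0076 FPKM in any library.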

How the data were processed

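The authors deposited FPKM, 1 column for each library. The tools named in the submitters' processing notes are TopHat2 2.0.13 and Cuffdiff 2.2.1, and the build is hg19; which step each tool performed, which annotation was used and how libraries were scaled is not given in the sources used here. Per the labels' protocols, RNA was extracted with Trizol and libraries were made with a TruSeq RNA v2 kit. Of 20246 features, 945 without a gene name (2.31 to 2.47% of summed FPKM) were left out.

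Groups were taken from the sample labels. FPKM were analysed as log2(FPKM + 1) for the 11574 named features with a mean of at least 1 FPKM, with limma 3.58.1 in R 4.3.3: a mean for each of 5 groups over all 10 libraries, 5 residual degrees of freedom, an intensity trend, two-sided tests and Benjamini-Hochberg adjustment over all features, threshold 0.05. The script was tested on simulated data. FPKM are not counts, so no count model was used. Depth was estimated from low features (a mean of at most 0.05 FPKM): 73.8% of 8732 values were whole multiples of 1 step within 0.05, and the scale comes from transcript lengths of 257 genes (quartiles 25000000 and 30000000 fragments). Lengths, chromosomes and overlaps are from GENCODE on GRCh38, matched by symbol.

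The members, the pathway lists and the tests were chosen with earlier results of these data known. Named genes are the 7 members, the 4 tested genes of each list with the largest difference of TOP1 from CasVP, any list gene called, and the 5 features nearest to PTCH1. Some genes that this rule takes are not reported here. Genes listed by the position of their libraries were named after their values were seen. Differences of index 0 from index 1 correlated between groups at -0.0364 to 0.415 and over 0.1 in 8 of 10 pairs, highest between P4P6 and sgRNA (0.415) and between P4P6 and CasVP (0.287). As the labels give no pairing and not every pair was over 0.1, the fit has no block, and whether the index pairs libraries is not settled. Alternatives were the pseudocount, the filter, 2 rescalings, the block, no trend, library weights, fewer libraries and, chosen after seeing the data, removal of the trend with transcript length.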

Additional observations from a re-analysis of the deposited data

How the results depend on the processing

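Of 666 recalculations of 34 member differences, 607 were classed as unchanged. For a tested difference this meant the same direction and side of the threshold. For an untested PTCH1 value it meant a shift within the spread of its replicates, whatever the sign. Of the rest, 39 lost a call, 5 gained one, 11 changed the sign of a tested difference and 4 moved an untested PTCH1 value beyond that spread. A call could be lost only by the 4 members called between TOP1 and P4P6 and the 1 called between P4P6 and sgRNA. Members called between TOP1 and P4P6 were 4, and 2 of 3 with a mean filter of 5 FPKM, 2 with library weights, 0 with the libraries of the 2 groups only, and 0 to 4 leaving out 1 library. Members called between P4P6 and sgRNA were 1, and 0 without a filter, with a filter of 5 FPKM, after quantile normalization, with library weights, with 2 groups only or with the length trend removed, 3 with the replicate block, and 0 to 2 leaving out 1 library; between P4P6 and CasVP, 0 to 1. The block changed no other member call; over all features it moved the calls between P4P6 and sgRNA from 1331 to 2326 and between P4P6 and CasVP from 1 to 600. Other pathway genes called between TOP1 and P4P6 were 15, and 8 without a filter, 7 with library weights, 0 with 2 groups only, and 2 to 12 leaving out 1 library. Between P4P6 and sgRNA they were 6, and 2 without a filter or without the trend, 0 with library weights or 2 groups only, 11 with the replicate block, 3 with the length trend removed, and 0 to 10 leaving out 1 library; between P4P6 and CasVP, 0, and 1 with the block and 0 to 4 leaving out 1 library.

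Signs changed for HHIP between P4P6 and sgRNA after quantile normalization (-0.00837) and length removal (-0.0159). Leaving out 1 library, differences between TOP1 and CasVP ran from -0.25 to 0.075 for GLI1, -0.064 to 0.054 for SMO and -0.085 to 0.25 for HHAT; between P4P6 and CasVP from -0.028 to 0.091 for SMO and -0.16 to 0.13 for PTCH1; between P4P6 and sgRNA from -0.017 to 0.091 for HHIP and -0.0057 to 0.090 for SMO; between TOP1 and P4P6 from -0.085 to 0.011 for SMO and -0.57 to -0.28 for PTCH1; and between P4P6 and INT from -0.019 to 0.27 for PTCH1. Where fewer libraries entered, a lone library was assumed to vary like the other groups; the other causes were not tested. The 36 named differences of other pathway genes lost a call in 187 of 713 recalculations. Only the calls between TOP1 and P4P6 (5 higher and 10 lower with TOP1) and between P4P6 and sgRNA (3 higher and 3 lower with P4P6) could be lost. The differences between TOP1 and CasVP among the 36 held no call to lose.

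With 2 libraries per group, no library was tested as an outlier.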
